A study of Mus musculus with 16 samples.

Results

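Tcf4, Tcf12 and Tcf3 encode the 3 E proteins of the mouse, and CpG methylation of their gene bodies was measured in 16 libraries of pooled metaphase II (MII) oocytes. They are 3 of 55450 annotated gene bodies, and all 3 were among the 18647 that had at least 20 methylation calls in every library. Tcf4 was chosen because earlier results on these libraries had shown oocytes of prepubertal origin far above adult oocytes in its methylation, so every value of that contrast given here for Tcf4, counts of called bins included, is a description and supports nothing. Tcf12 and Tcf3 were added as its paralogues, whatever their values. A call is 1 read of 1 cytosine in a CpG dinucleotide, counted as methylated when it still reads as C after bisulphite treatment, and methylation is given as the percentage of methylated calls.

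All oocytes came from F1 females of the cross C57BL/6J X CBA/Ca, and the labels name no transgene or deleted allele. The 4 IFC libraries (in vitro follicle culture) came from preantral follicles of prepubertal females that were grown in culture, and their labelled age of 23 days counts the days in culture. The 5 SO libraries came from superovulated prepubertal females of 23 days. The 4 SOA libraries came from superovulated adults of 10 weeks, and the 3 IV libraries (in vivo) from naturally ovulated adults of 10 weeks that received no hormones but were brought into oestrus by male pheromones. SO and SOA females received different doses of gonadotropins, so age and dose cannot be told apart in that comparison. Each library was made by post-bisulphite adapter tagging (PBAT) from 1 pool of oocytes. The labels do not say which females contributed to which pool. The p-values of the exact permutation, limma and quasi-binomial tests therefore measure the spread between pools. Those of the likelihood-ratio test of 10-kb bins count each call as independent and do not measure that spread.

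The genes differ in size and CpG content. Tcf4 (ENSMUSG00000053477, chr18:69343356-69689079, plus strand, GRCm38) spans 345.7 kb with 4616 CpGs, or 13.4 per kb, and has 62 annotated transcripts that start in 11 clusters. Tcf12 (ENSMUSG00000032228, chr9:71842688-72111871, minus strand) spans 269.2 kb with 1744 CpGs, or 6.48 per kb, and 21 transcripts in 5 start clusters. Tcf3 (ENSMUSG00000020167, chr10:80409514-80433647, minus strand) spans 24.1 kb with 488 CpGs, or 20.2 per kb, and 14 transcripts in 4 start clusters.

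E proteins are class I basic helix-loop-helix (bHLH) transcription factors. They bind the E-box motif CANNTG as homodimers or as partners of class II bHLH proteins, and they are held off DNA by Id proteins, which dimerise with them but lack the basic region that contacts DNA. TCF4 is also known as E2-2 or ITF2 and is a different protein from the Wnt effector TCF7L2, TCF12 is HEB, and TCF3 is E2A, the source of the E12 and E47 isoforms. In the oocyte FIGLA, a germ-cell bHLH factor, uses E proteins as partners. In growing oocytes DNA methylation is laid down by DNMT3A with DNMT3L mainly across transcribed gene bodies, while most CpG-rich transcription starts stay unmethylated.

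The bases just before the first annotated start of Tcf12 and Tcf3 are shown because they were the unmethylated ends from which the methylated bodies of these genes ran, with every CpG in capitals. They are the upstream parts of 300-base promoter windows from RefSeq (GRCm38.p6), read 5′ to 3′ on the minus strand and cut where the gene begins, at chr9:72111872-72112069 for Tcf12 and chr10:80433648-80433885 for Tcf3.
Tcf12: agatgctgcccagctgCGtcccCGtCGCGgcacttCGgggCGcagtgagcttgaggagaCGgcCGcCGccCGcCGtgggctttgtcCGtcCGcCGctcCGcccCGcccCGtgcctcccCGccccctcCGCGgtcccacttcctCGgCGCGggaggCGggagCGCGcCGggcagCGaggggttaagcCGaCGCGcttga
Tcf3: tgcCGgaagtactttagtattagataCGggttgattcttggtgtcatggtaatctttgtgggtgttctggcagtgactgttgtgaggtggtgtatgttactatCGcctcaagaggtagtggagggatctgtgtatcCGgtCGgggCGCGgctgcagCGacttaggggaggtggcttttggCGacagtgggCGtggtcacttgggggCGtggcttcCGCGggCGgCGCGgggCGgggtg
The 198 bases of Tcf12 hold 31 CpGs and the 238 bases of Tcf3 hold 17. Over its whole 300 bases the Tcf12 window holds 41 CpGs, a number reached by 3.46% of 32851 RefSeq promoter windows, and the Tcf3 window holds 25, reached by 18.4%, while the median promoter holds 7. The E-box CANNTG, which reads the same on both strands, occurs 1 time in each of these windows, and 72.3% of all promoter windows hold it at least 1 time. In the 300-base Tcf12 window 8 of 246 calls of all libraries were methylated (3.25%, 95% Wilson interval 1.66 to 6.28), 6 of them among the 57 calls of IV. In the Tcf3 window 1 of 127 calls was methylated (0.787%, interval 0.139 to 4.33).

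The libraries held between 5218053 and 23065411 calls. Depth was uneven, since 9 libraries lay below 12000000 calls, namely all 4 of IFC, 3 of SOA and 2 of SO, and the intervals given here cover counting error only. The percentages of methylated calls over the whole genome overlapped between groups (37.6% to 43.7%), and Pearson's r of gene-body percentages ranged from 0.934 to 0.975 over the 25 pairs of libraries within groups. The starts of 5 maternally methylated imprinted transcripts, which are fully methylated only in oocytes and intermediate in somatic cells, reached 92.4% to 98.9% in 15 libraries and 85.0% in IV1. In 10-kb bins that were below 20% in the other groups, IV1 averaged 16.3% and the other libraries 6.96% to 11.5%. IV1 thus stood apart, and gene-body and flank differences that it moved by over 1.5 times are also given without it.

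The gene body of Tcf4 was much more methylated in oocytes of prepubertal origin than in adult oocytes. In IFC it reached 82.6%, 86.3%, 84.0% and 78.7% in the 4 libraries. In SO the 5 libraries held 78.7%, 77.9%, 75.6%, 78.1% and 78.2%. The 4 SOA libraries held 50.9%, 57.2%, 60.03% and 49.96%, and the 3 IV libraries 46.7%, 42.0% and 46.8%. All 9 libraries of prepubertal origin lay above all 7 adult libraries, with a gap between the lowest SO library and the highest SOA library, and SOA lay above IV without overlap. Each value rests on 1146 to 4950 calls.

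For Tcf4, IFC averaged 82.9% ± 3.19 (SD, n = 4) and SO 77.7% ± 1.23 (SD, n = 5). The adult groups averaged 54.5% ± 4.88 (SD, n = 4) after superovulation and 45.1% ± 2.76 (SD, n = 3) after natural ovulation. The differences on which the gene had been chosen were 23.2 percentage points for SO minus SOA, 28.4 points for IFC minus SOA, and 29.5 points for the 9 libraries of IFC and SO (80.02%) minus the 7 of SOA and IV (50.5%). Beside these, the median gene body differed by 0.330 points between the 9 and the 7 libraries. By this last difference Tcf4 took place 16 among the 18647 gene bodies and place 4 among the 2877 longer than 100 kb. Among libraries below 12000000 calls the difference of SO minus SOA was 22.3 points, and without IV1 that of the 9 against the remaining adult libraries was 28.9 points.

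The 2 comparisons of Tcf4 that the choice of the gene did not use were smaller. All IFC libraries lay above all SO libraries, by 5.21 points on average, but the lowest IFC library and the highest SO library both printed as 78.7%. The two-sided exact permutation test gave p = 0.00794, the smallest that 4 against 5 libraries allow, and an adjusted p of 0.0952 over the 12 gene-body tests made on the 3 genes, and limma over all gene bodies gave an adjusted p of 0.563. All SOA libraries lay above all IV libraries, by 9.37 points, with an exact p of 0.0571 where 0.0286 is the smallest possible, and an adjusted p of 0.229. For this comparison limma gave an adjusted p of 0.763, and it called 0 gene bodies (0.0% of 18647), of which 1077 had an unadjusted p under 0.05. Neither difference therefore passed the threshold of 0.05 after adjustment. Without IV1, SOA minus IV was 10.1 points.

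Tcf12, the paralogue closest to Tcf4 in length, was highly methylated in all 4 groups. It reached 86.5%, 83.0%, 87.4% and 91.0% in IFC, and 83.0%, 81.2%, 78.5%, 84.0% and 85.9% in SO. It reached 82.2%, 84.9%, 88.6% and 83.1% in SOA and 79.4%, 81.3% and 84.9% in IV. Every pair of groups overlapped, and the values rest on 306 to 1595 calls. IFC averaged 87.0% ± 3.30 (SD, n = 4) and SOA 84.7% ± 2.80 (SD, n = 4), while SO averaged 82.5% ± 2.83 (SD, n = 5) and IV 81.9% ± 2.80 (SD, n = 3). The widest of the 5 differences tested was IFC minus SO, at 4.45 points (exact p = 0.0556, adjusted p = 0.229, 3 of 4 IFC libraries above all SO libraries). The 9 libraries of prepubertal origin exceeded the 7 adult libraries by 1.02 points (exact p = 0.558, adjusted p = 0.609). SO minus SOA, SOA minus IV and IFC minus SOA were -2.17, 2.83 and 2.29 points, each with an adjusted exact p of 0.457. Without IV1 the difference between the 9 and the adult libraries was 0.340 points, and SOA minus IV was 1.58 points. From calls of the bottom strand alone these differences were -0.312 and -0.813 points.

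Tcf3, the shortest of the E-protein genes, was the most highly methylated. Its gene body held 87.1% to 97.6% in IFC, 88.9% to 94.9% in SO, 84.8% to 92.3% in SOA and 86.0% to 94.4% in IV, on 91 to 578 calls. The means were 91.9% ± 4.55 (SD, n = 4), 91.4% ± 2.43 (SD, n = 5), 89.0% ± 3.74 (SD, n = 4) and 90.9% ± 4.38 (SD, n = 3), in the same order of groups. The 5 differences ran from -1.97 points for SOA minus IV to 2.93 points for IFC minus SOA, with adjusted exact p-values of 0.457 to 0.833, and the sign of IFC minus SO (0.540 points) turned when IFC4 or SO2 was left out. From calls of the top strand alone IFC minus SO, SOA minus IV and IFC minus SOA all changed sign, to -1.27, 1.14 and -1.16 points. Without IV1, SOA minus IV was -4.43 points for Tcf3, and the difference of the prepubertal from the adult libraries 1.15 points in place of 1.78. In limma over all gene bodies the comparison of IFC and SO with SOA and IV, which there weights the 4 groups equally, gave 1.47 points for Tcf12 (SE 1.65, adjusted p = 0.794) and 1.67 points for Tcf3 (SE 1.95, adjusted p = 0.801), and 0.850 and 0.440 points without IV1. That comparison called 5.03% of all gene bodies, 2.76% higher and 2.27% lower in IFC and SO, and neither paralogue was among them.

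**Figure D1:**
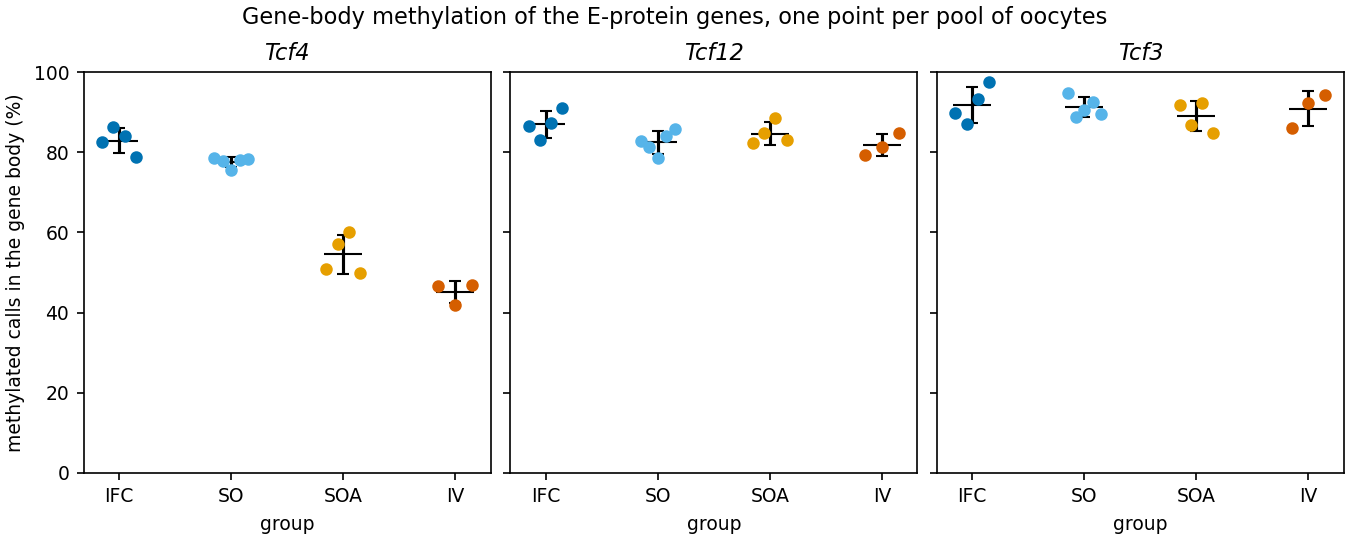
Methylated calls in the gene body (%, vertical axis) of Tcf4, Tcf12 and Tcf3 in the 4 groups, with 1 point per library and the mean and SD as bars. For Tcf4 the 9 IFC and SO libraries sit between 75.6% and 86.3% and the 7 SOA and IV libraries between 42.0% and 60.03%, while the groups overlap for Tcf12 and Tcf3.

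The difference at Tcf4 ran along most of the gene. In 10-kb bins, which were assigned to a gene when at least 5 kb lay inside it, the 35 bins of Tcf4 all had at least 15 calls in every library. A bin was called different when a likelihood-ratio test of a logistic model of the calls gave an adjusted p below 0.05 over all bins of the genome and the group means differed by at least 20 points. Of the 35 bins, 22 were called higher in SO than in SOA and 0 lower, where of the 203342 bins tested 1.17% were called higher and 0.898% lower in SO (2.07% in all). For IFC against SOA it was 26 higher and 0 lower, where 1.87% of 207308 bins were called higher and 2.13% lower in IFC (4.0% in all). Both comparisons share the SOA libraries and are the ones on which the gene was chosen, so these counts only describe it and nothing is read from them. They also depended on the test, since of the 22 and 26 bins the quasi-binomial test called 0 and 1, beside 0.0113% and 0.097% of all bins, and limma 6 and 11, beside 0.199% and 0.973%. In 20 of the 35 bins all 9 libraries of prepubertal origin lay above all 7 adult libraries, a pattern found in 0.334% of the 196832 bins with calls in all libraries.

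In the bin centred 41.6 kb from the start, where the groups were farthest apart, IFC held 93.1%, 94.2%, 92.1% and 95.8%. SO held 90.3%, 81.8%, 86.7%, 91.2% and 89.8%, SOA 44.7%, 60.7%, 22.2% and 38.7%, and IV 41.1%, 30.5% and 31.8%. The mean of IFC and SO exceeded that of SOA and IV by 52.0 points there, and by 7.96 points in the bin over the gene start, centred at 1.64 kb, where the libraries overlapped. Most bins were near full methylation in oocytes of prepubertal origin and intermediate in adult oocytes: the group mean was above 80% in 26 bins of IFC and 24 of SO, but only in 4 bins of SOA and 1 of IV. The median bin stood at 91.6% in IFC and 89.1% in SO, against 56.7% in SOA and 47.1% in IV.

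The bins rose and fell along Tcf4 in the same places in all groups. Pearson's r across the 35 bins was 0.983 between the means of IFC and SO, 0.963 between SOA and IV, and 0.857 between the mean of IFC and SO and that of SOA and IV, with Spearman's rho of 0.883, 0.946 and 0.849. These values describe the shape of the profile, since bins of 1 gene share libraries and neighbouring bins are not independent. The number of CpGs in a bin had an r of -0.425 with the mean of IFC and SO and with that of SOA and IV, and the rank correlations were weaker (rho -0.267 and -0.390).

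**Figure D2:**
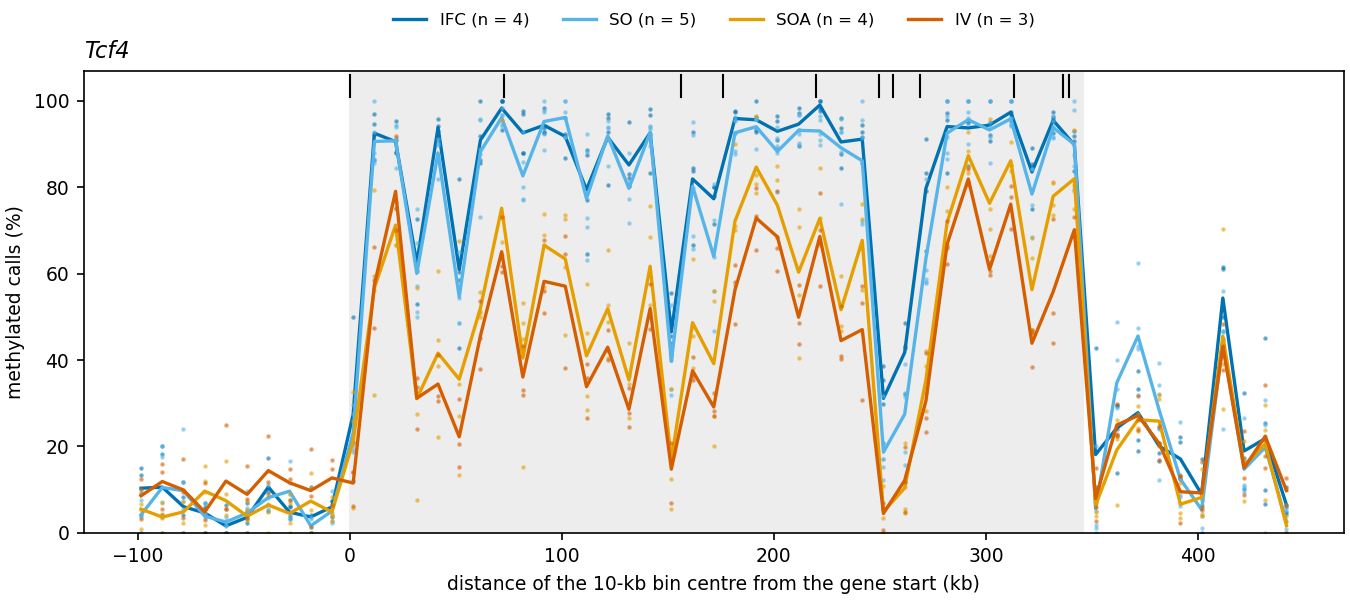
Methylated calls (%, vertical axis) in 10-kb bins along Tcf4 (shaded) and 100 kb on each side, by the distance of the bin centre from the gene start in kb, with group means as lines, libraries as points and ticks for the 11 start clusters. Inside the gene the IFC and SO lines lie above the SOA and IV lines, by 7.96 to 52.0 points for the pooled pairs of groups, and all lines fall together at the gene ends and near 250 kb.

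Between IFC and SO no bin of Tcf4 passed both limits, where 1.18% of 210050 bins were called in either direction. IFC had the higher mean in 28 of 35 bins, by 2.20 points at the median, against a median of 0.309 points over all bins. In the likelihood-ratio test 11 bins had an unadjusted p under 0.05, all higher in IFC. Of all bins 15.8% had such a p in either direction and 8.42% with IFC higher. There were 3 bins that passed the adjusted p alone, as did 3.76% of all bins. At 81.6 kb IFC held 87.8%, 97.7%, 96.9% and 87.9% and SO 92.7%, 77.1%, 77.4%, 80.2% and 85.9%, a difference of 9.94 points with overlapping libraries (logistic likelihood-ratio test, adjusted p = 0.00335). The neighbouring bins at 261.6 kb and 271.6 kb differed by 14.3 and 16.2 points (adjusted p = 0.00351 and 0.0115 in the same test). At 271.6 kb IFC held 65.2%, 83.3%, 91.2% and 79.2%, and SO 58.1%, 60.9%, 58.7%, 57.7% and 82.0%. The logistic model counts each call as independent. Quasi-binomial and limma tests, which use the spread between libraries, called none of these bins, where they called 0.000476% and 0.0229% of all bins. Their calls also needed a difference of at least 20 points, and the widest in a Tcf4 bin was 16.2 points. Neither test could therefore call these bins, whatever the p, and nothing is read from the absence of calls. Either test had 5 Tcf4 bins under an unadjusted p of 0.05, all higher in IFC. Over all bins the shares were 7.37% and 7.74% in either direction, and 3.96% and 3.86% with IFC higher.

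Between SOA and IV, 2 bins of Tcf4 were called, both higher in SOA, where 0.194% of 217399 bins were called in that direction and 0.275% in the other (0.469% in all). Without the 20-point limit 5 bins passed, beside 5.21% of all bins. At 331.6 kb SOA held 81.0%, 81.3%, 75.9% and 73.5%, and IV 50.9%, 43.8% and 72.7%. The groups did not overlap, the difference was 22.1 points, and the adjusted p of the likelihood-ratio test was 1.56e-05. At 241.6 kb SOA held 65.7%, 76.2%, 72.7% and 56.2%, and IV 53.2%, 30.8% and 57.1%, with overlap and a difference of 20.7 points (adjusted p = 0.027). SOA had the higher mean in 31 of 35 bins, by 7.31 points at the median, against a median of -0.99 points over all bins. Without IV1 the number of called bins was 1, without IV2 it was 0, and quasi-binomial and limma tests called 0, as they did over the whole genome (0.0%). These tests had 2 and 4 Tcf4 bins under an unadjusted p of 0.05, all higher in SOA. Over all bins the shares were 5.8% and 5.09% in either direction, and 1.88% and 1.79% with SOA higher. The likelihood-ratio test had 14 Tcf4 bins under that limit, all higher in SOA, beside 20.3% of all bins in either direction and 5.14% with SOA higher.

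No bin of Tcf12 or Tcf3 was called. Of the 27 bins of Tcf12, 25 had enough calls to be tested, with as few as 5 calls in a library, and both bins of Tcf3 were tested. The likelihood-ratio test with its 20-point limit called 0 of them in each of the 4 comparisons. Over all bins it called 1.18% for IFC against SO, 2.07% for SO against SOA, 0.469% for SOA against IV and 4.0% for IFC against SOA. At such shares 0 calls in so few bins says little about these genes. Quasi-binomial and limma tests, with the same 20-point limit, also called 0, where they called at most 0.097% and 0.973% of all bins. No tested bin reached that limit, since the differences ran from -13.5 to 12.7 points in Tcf12 and from -1.77 to 5.26 points in Tcf3. None of the tests could therefore call a bin, whatever its p. At an unadjusted p under 0.05 the likelihood-ratio test had 3 bins of Tcf12 for IFC against SO and 1 bin in each other comparison, and 1 bin of Tcf3 in each comparison but SOA against IV, which had 0, while 15.8% to 22.1% of all bins had such a p. The Tcf12 bin centred 16.9 kb from its start passed the adjusted p alone for IFC against SOA, as did 9.56% of all bins, at 79.8% ± 13.8 (SD, n = 4) and 93.3% ± 2.17 (SD, n = 4), in the opposite direction to Tcf4. The Tcf3 bin centred 18.6 kb from its start also passed the adjusted p alone for IFC against SOA, in the same direction as Tcf4, at 97.3% ± 2.35 (SD, n = 4) and 92.0% ± 2.72 (SD, n = 4). Of the 25 bins of Tcf12, 23, 23, 24 and 22 had a mean above 80% in IFC, SO, SOA and IV.

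**Figure D3:**
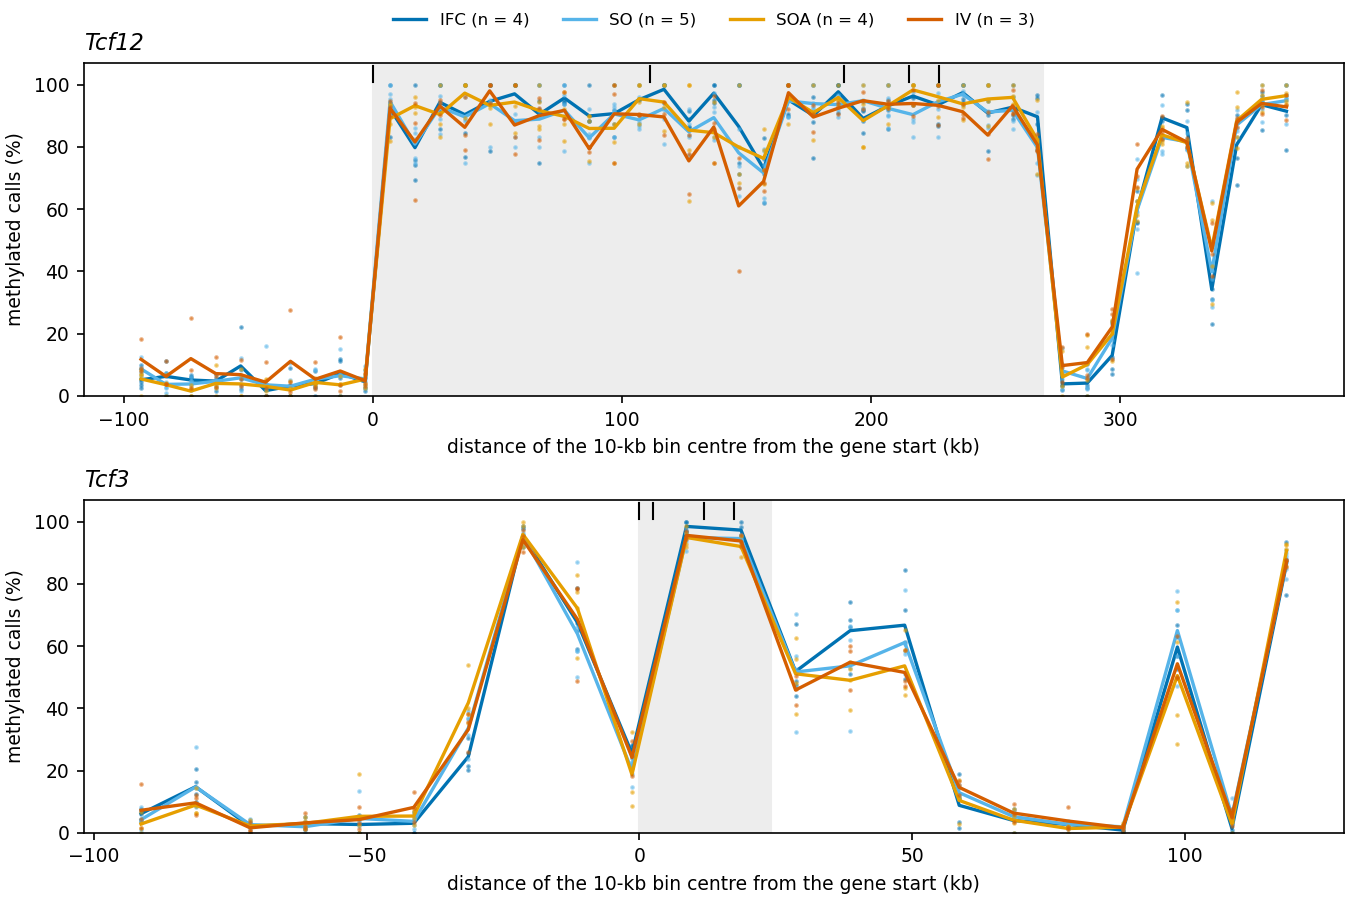
Methylated calls (%, vertical axis) in 10-kb bins along Tcf12 (upper panel) and Tcf3 (lower panel), both shaded, and 100 kb on each side, by the distance of the bin centre from the gene start in kb, with group means as lines and libraries as points. The Tcf12 lines part most at the bin centred 146.9 kb from its start, which had as few as 1 call in a library and was not tested, with means of 86.6%, 78.1%, 79.96% and 61.05% in IFC, SO, SOA and IV, and 22 to 24 of the 25 tested Tcf12 bins lie above 80% in each group.

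**Figure D4:**
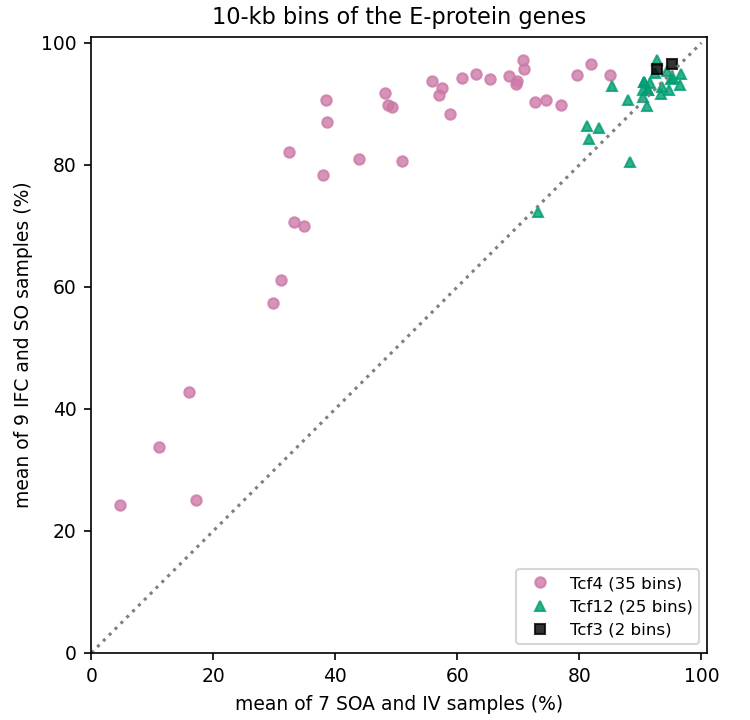
Each 10-kb bin of the 3 genes with at least 5 calls in every library, by its mean over the 7 SOA and IV libraries (horizontal axis, %) and over the 9 IFC and SO libraries (vertical axis, %), with the dotted line at equal values. All 35 Tcf4 bins lie above the line by 7.96 to 52.0 points, and the 25 Tcf12 bins lie between 7.87 points below it and 7.55 points above it.

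The methylated domain of Tcf4 began and ended close to the ends of the gene. With the calls of a group pooled, the window 2 to 4 kb after the start held 0% of 56 calls in IFC and 2.75% of 109 in SO, and 9.47% of 95 in SOA and 0% of 72 in IV. The next window, 4 to 6 kb, held 86.8%, 85.4%, 65.2% and 34.9%, so that methylation rose over the same 2 kb in every group. At the other end the windows 338 to 340 kb from the start held 97.4%, 96.2%, 96.2% and 91.0%. The window 344 to 346 kb, which spans the annotated end, held 79.4% and 66.7% in IFC and SO but 22.2% and 27.5% in SOA and IV, and from 346 to 348 kb the values were 38.5% of 26 calls, 15.2% of 79, 2.86% of 35 and 3.92% of 51.

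Inside the gene, 145 windows of 2 kb had at least 20 calls in each group. As a description of the contrast on which the gene was chosen, windows between 20% and 80% numbered 29 in IFC and 30 in SO, against 88 in SOA and 105 in IV. The windows below 20% in all groups numbered 7, and those above 80% in all groups 8.

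Only some of the 11 start clusters of Tcf4 are described here, and these fell into unmethylated, differing and methylated ones. Each cluster was measured over 1 stretch, from 1000 bp before its first start to its last start. The first cluster, at 0 to 5.59 kb with 24 transcripts, held 16.6%, 17.5%, 16.5% and 6.10% in IFC, SO, SOA and IV, on 181 to 389 calls. Its stretch joins the unmethylated window after the gene start with part of the more methylated one that follows, where its last starts lie. The cluster at 249.6 to 250.8 kb with 11 transcripts was almost free of methylation in every group, at 1.67% of 60 calls, 1.94% of 155, 0% of 119 (95% Wilson interval up to 3.13%) and 0% of 143 (up to 2.62%). The cluster at 176.1 to 179.1 kb with 14 transcripts followed the gene body, at 96.7% (interval 92.6 to 98.6), 93.4% (88.9 to 96.2), 71.1% (63.2 to 77.9) and 53.2% (46.1 to 60.3) in the same order of groups. At 156.0 to 157.6 kb, where 5 transcripts start, IFC was highest with 47.6% (35.8 to 59.7), followed by SO with 25% (17.7 to 34.1), SOA with 8.54% (4.20 to 16.6) and IV with 7.59% (4.29 to 13.1). The last 3 clusters, from 313.3 kb on, were between 82.5% and 100% in every group.

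Just beyond the unmethylated starts near 250 kb the groups parted again. The window 248 to 250 kb held 2.13%, 3.61%, 2.20% and 0%, whereas from 252 to 254 kb IFC held 70.2% of 47 calls (95% Wilson interval 56.02 to 81.3) and SO 45.7% of 81 (35.3 to 56.5), against 7.41% of 54 in SOA (2.92 to 17.6) and 3.08% of 65 in IV (0.848 to 10.5). This stretch is a trough of the 10-kb profile in every group.

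**Figure D5:**
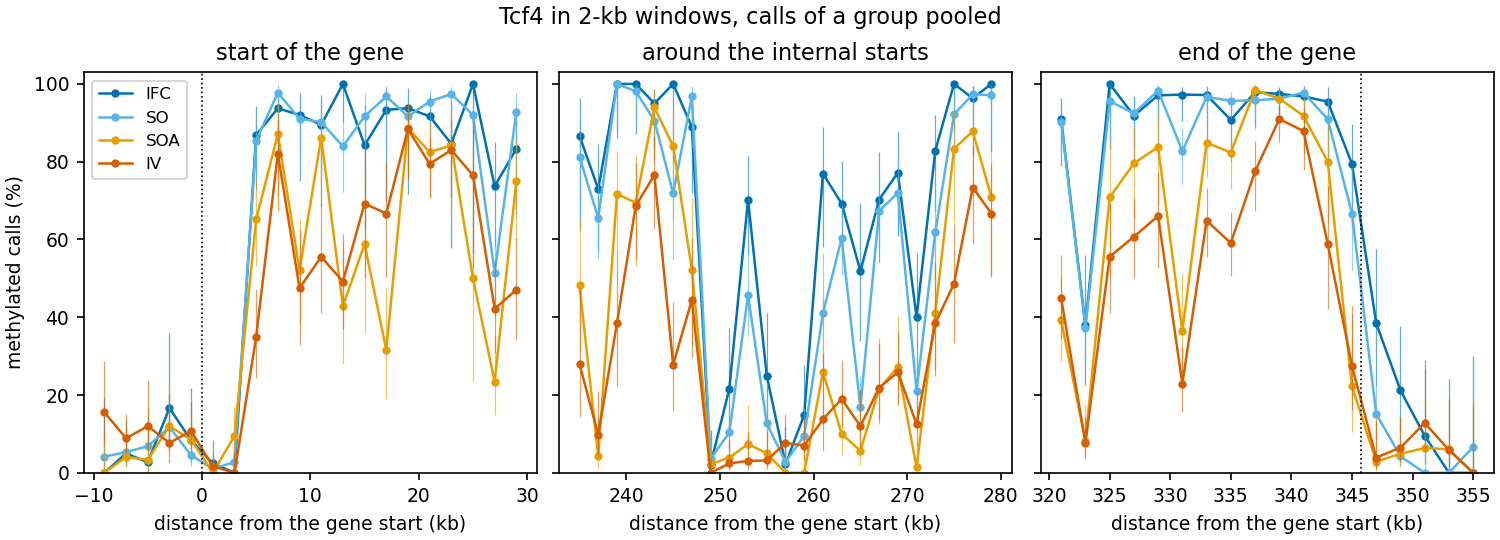
Methylated calls (%, vertical axis) of each group pooled in 2-kb windows of Tcf4, by distance from the gene start in kb, at the gene start, around the inner starts near 250 kb and at the gene end (dotted lines mark the gene ends), with 95% Wilson intervals as bars that cover counting error only. All groups are below 10% from 2 to 4 kb and from 248 to 250 kb, and from 344 to 348 kb, across the gene end, IFC and SO lie above SOA and IV.

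The gene was also divided into 5 equal segments. Its first segment averaged 73.4% ± 3.14 (SD) and 68.6% ± 3.07 in IFC and SO, but 44.2% ± 5.52 and 38.5% ± 2.95 in SOA and IV. In the last segment the values were 93.4% ± 2.24, 92.2% ± 1.92, 78.0% ± 3.20 and 64.4% ± 3.47, the highest of the gene in each group. Introns gave 83.8%, 78.9%, 53.8% and 45.2%, close to the whole gene. Exons, with 97 to 527 calls per library, gave 76.4% ± 11.3, 66.8% ± 5.77, 61.2% ± 6.15 and 44.9% ± 3.26, so that SO and SOA were closer to each other in exons than in introns, a contrast that was not tested.

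The first cluster of Tcf12, with 13 transcripts in 2.15 kb, was at 3.53% to 5.81% in the 4 groups on 170 to 516 calls, and that of Tcf3, with 8 transcripts, was at 0.431% to 2.44% on 74 to 232 calls. The inner starts of Tcf12 and Tcf3 were mostly methylated, on few calls, and for the inner cluster of Tcf3 with the most calls, 17.4 to 18.2 kb from its start, the values were 95.1%, 92.3%, 84.2% and 85.2% in IFC, SO, SOA and IV. Averaged over its whole stretch, the first start cluster of each E-protein gene thus lay below 20% in each group.

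The flanks of the E-protein genes differed by a few points at most over 100 kb. The 100 kb upstream of Tcf4 held 5.89% ± 1.37 (SD, n = 9) in IFC and SO and 8.16% ± 4.23 (SD, n = 7) in SOA and IV (difference -2.27 points, exact permutation test, adjusted p = 0.324 over 6 tests). IV1 held 17.3% there and the other adult libraries 4.53% to 8.65%, and without IV1 the difference was -0.745 points. The 100 kb downstream held 20.8% ± 3.35 and 17.1% ± 3.22, a difference of 3.74 points (exact p = 0.0394, adjusted p = 0.237). Within 50 kb downstream the difference was 6.82 points and passed the threshold (exact test, adjusted p = 0.0163), and without IV1 the 100-kb difference was 4.51 points (adjusted p = 0.0947). The 50-kb flank was an alternative to the 100-kb one. It adjoins the methylated domain of Tcf4 and was tested in the contrast on which the gene was chosen, so nothing is read from its p-value. The flanks of Tcf12 held 5.20% against 5.58% upstream and 52.6% against 53.0% downstream, and those of Tcf3 18.6% against 18.2% and 36.8% against 35.0%, with adjusted exact p-values of 0.812 to 0.940. Without IV1 the difference upstream of Tcf12 changed from -0.376 to 1.25 points (exact test, adjusted p = 0.128) and that upstream of Tcf3 from 0.414 to 1.07 points.

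Calls at neighbouring CpGs on the same strand of Tcf4 were mostly alike within a library. Among positions with 1 call that lay at most 50 bp apart on the same strand, the 2 calls of a pair differed in 10.1% ± 2.67 (SD, n = 4) of IFC pairs and 9.44% ± 1.896 (SD, n = 5) of SO pairs. In the adult groups they differed in 11.95% ± 2.08 (SD, n = 4) of SOA pairs and 14.0% ± 1.59 (SD, n = 3) of IV pairs. If calls had been placed independently at the share of methylated calls of each library, 30.5%, 37.5%, 49.1% and 49.0% of pairs would have differed. Observed shares were below these values in all 16 libraries. The values use 1 share for the whole gene in each library, while methylation rose and fell along Tcf4. Nearby calls differ less often than such values for that reason alone, so nothing is read from the gap. In Tcf12 the group means were 7.47% to 11.7% of pairs, beside 34.0% to 41.2% for independent calls. Pairs on opposite strands, which cannot come from the same bisulphite-treated strand, differed in 36.4% ± 1.95 of pairs in IV (245 to 321 pairs per library), in 14.3% to 42.7% in SOA (42 to 402 pairs), in 10.1% to 19.5% in SO and in 12.2% to 35.3% in IFC. Opposite-strand pairs could include both strands of 1 CpG. For these pairs independent calls, again at 1 share for the whole gene, would have differed in 29.4%, 36.4%, 47.5% and 49.7% of pairs for IFC, SO, SOA and IV. The library IFC4 was close to its own such value, at 35.3% beside 35.99%, and SOA1 at 42.7% beside 47.3%. The deposited tables do not keep reads, so it was not tested which pairs came from the same read.

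The gene bodies most like Tcf4 were named by Pearson's r over the 16 libraries among 707 genes whose group means ranged over at least 20 points. They were Zfp521, a zinc-finger transcription factor (r = 0.972), Rmdn2 (0.966), Anp32a (0.961), the antisense transcript Gm38251 (0.957), Miga1 (0.951), the microtubule end-binding gene Mapre3 (0.946), the kinase gene Mark1 (0.945), which Gm38251 overlaps, and the axon guidance gene Slit2 (0.945). Zfp521 had means of 64.7%, 59.5%, 28.9% and 27.0% in IFC, SO, SOA and IV, and Slit2 39.1%, 35.8%, 19.3% and 16.1%. These r values only describe likeness over the 16 libraries, and libraries of a group are not independent of each other for this purpose.

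Among the tested genes of E-protein partners and cofactors 1 was called, a count near the share of calls over all gene bodies. Of a list of 52 genes, 19 had at least 20 calls in every library. The list medians of the differences were 0.0596, 0.585, 0.183 and 0.319 points for IFC against SO, SO against SOA, SOA against IV and IFC against SOA, beside 0.516, -0.0129, 0.587 and 0.514 points over all gene bodies. limma called 0 of the 19 in the first 3 of these comparisons, where 0.558%, 1.47% and 0.0% of all gene bodies were called, and 1 in IFC against SOA, where 3.76% were. It called 1 for IFC and SO against SOA and IV, where 5.03% were, with a list median of 0.997 points beside 0.403 over all gene bodies. At an unadjusted p under 0.05 there were 2, 1, 1 and 3 of the 19 in the first 4 comparisons, beside 8.29%, 10.3%, 5.78% and 14.4% of all gene bodies, and 1 in the last, beside 14.7%. Of the 40 class II bHLH genes, the tissue-specific partners, 12 had enough calls to be tested, and 11 of these had means below 20% in all 4 groups. With the calls of a group pooled, 22 of the other 28 were below 20% in all groups, but 4 were above 60% in all of them, namely Neurog3, Lyl1, Tcf15 and Scx, named here after their values were seen. The co-regulators that bind E-protein activation domains were methylated, and Runx1t1, Cbfa2t2, Ep300 and Crebbp lay above 60% in every group while Cbfa2t3 held 37.3% to 41.9%.

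The called gene was Tal1, a class II partner of E proteins in blood cells (chr4:115056426-115071755, 15.3 kb, 383 CpGs), and it was lower in IFC than in SOA, unlike Tcf4. It held 2.80%, 1.45%, 1.16% and 2.65% in IFC, and 7.98%, 12.7%, 9.12%, 10.2% and 17.7% in SO. It held 15.5%, 37.5%, 23.1% and 15.1% in SOA, on 39 to 430 calls, and 13.6%, 14.2% and 9.68% in IV. All IFC libraries lay below all others. IFC was lower than SOA by 20.8 points (limma, SE 3.93, adjusted p = 0.0064). SOA minus IV was 10.3 points, in the direction of Tcf4 (limma, SE 4.24, adjusted p = 0.763), but 5.42 points without SOA2. The mean of IFC and SO was lower than that of SOA and IV by 10.9 points (SE 2.82, adjusted p = 0.0364), a call that was lost when any of 12 single libraries was left out, with adjusted p-values up to 0.0997, and with depth as a covariate (0.0551). The difference itself was -11.6 to -10.4 points in those 12 runs and -11.8 points with depth as a covariate.

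Among the Id genes, which encode the inhibitors of E proteins, Id4 alone had enough calls to be tested, and its means were 26.7% ± 14.2 (SD) for IFC, 26.4% ± 3.14 for SO, 21.9% ± 11.4 for SOA and 22.0% ± 9.15 for IV. It was called in none of the comparisons by limma. With the calls of a group pooled and no test, Id1 held 14.8% of 88 calls in IFC and 23.9% of 327 in SO, and 32.9% of 161 in SOA and 40.8% of 184 in IV. Id2 and Id3 held 1.202% to 2.97% in all groups. The libraries of Id1 spread widely, with SDs of 10.5 to 29.3 points. Figla, the germ-cell partner, averaged 42.3% ± 5.48 (SD) for IFC, 40.5% ± 15.9 for SO, 40.03% ± 14.1 for SOA and 30.9% ± 4.48 for IV over the libraries, on 105 to 289 calls in a group, also without a test.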

How the data were processed

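PBAT libraries of 16 oocyte pools were analysed. Per the labels, reads were trimmed with Trim Galore 0.4.4 and cutadapt 1.9.1 and aligned to GRCm38 with Bismark 0.19.0, and duplicate reads were removed, according to the study's text. The deposited tables hold, for each covered CpG position of either strand, the counts of methylated and unmethylated calls, not normalized. The authors' percent column is methylated calls as a percent of the calls at the position; values here were recalculated from the counts over genes, bins or windows.

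The members and gene lists were chosen with earlier results of these data known. Gene bodies came from GENCODE M21. Bins of 10 kb needed 5 calls and gene bodies 20 calls in every library compared. Bins were tested by a logistic likelihood-ratio test, gene bodies by limma (3.58.1, R 4.3.3) over 18647 genes and all 16 libraries, and single values by two-sided exact permutation tests, all with Benjamini-Hochberg adjustment at 0.05. Named were the E-protein genes, list members called in any comparison, Id1, Id2, Id3, Id4, Figla, and the 8 gene bodies most like Tcf4; the 5 co-regulators and Neurog3, Lyl1, Tcf15 and Scx were named outside this rule, after their values were seen. The alternatives were other tests, limits, bin positions, flank lengths, strands, depths and single libraries left out. Tests were checked on simulated data. The simulated bin calls held no spread between libraries of a group, so that check cannot vouch for the likelihood-ratio calls of bins in these data. Python 3.11.15, numpy 2.4.6, pandas 2.3.3, scipy 1.17.1 and matplotlib 3.10.9 were used. Between 5218053 and 23065411 calls per library left few calls per position, which limits the precision of single windows. Expression was not measured, and non-CpG calls were not analysed here.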

Additional observations from a re-analysis of the deposited data

Results flagged for a closer look

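Of 33 groups of 4 or 5 libraries examined for a library far from the others, 4 held one, where chance gives about 1 in 20. In the Tcf4 gene body SO3, at 75.6%, lay below the other SO libraries, which held 77.9% to 78.7%. Unlike neighbouring calls on the same strand of Tcf4 made up 14.1% of pairs in IFC4 and 8.53% to 9.20% in the other IFC libraries. On opposite strands of Tcf4 the share of unlike pairs was 35.3% in IFC4, on 68 pairs, and 12.2% to 14.3% in the other IFC libraries. In the 100 kb downstream of Tcf12, SOA1 held 62.3% and the other SOA libraries 49.6% to 51.0%.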

How the results depend on the processing

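The gene-body differences of Tcf4 kept their direction in every alternative run in which they were taken, including thinning to the shallowest library and single strands. On libraries below 12000000 calls only IFC minus SO, SO minus SOA and IFC minus SOA were taken, since no IV library was that shallow. SOA4, the deepest SOA library, held 49.96% in Tcf4, beside 46.7%, 42.0% and 46.8% in IV1, IV2 and IV3. With single libraries left out the Tcf4 differences ranged from 4.07 to 6.60 points (IFC minus SO), 21.7 to 25.02 (SO minus SOA), 7.53 to 10.9 (SOA minus IV), 26.9 to 30.2 (IFC minus SOA) and 28.1 to 31.1 (IFC and SO minus SOA and IV). From positions with at least 3 calls SO minus SOA was 17.8 points, on as few as 6 calls in a library, and some libraries had 0 such calls in Tcf12 and Tcf3, which gave no value. Small differences of the paralogues changed sign. On the top strand Tcf3 gave -1.27 (IFC minus SO), 1.14 (SOA minus IV) and -1.16 points (IFC minus SOA). On the bottom strand Tcf12 gave -0.813 (SOA minus IV) and -0.312 points (IFC and SO minus SOA and IV). Tcf3 IFC minus SO was -1.35 without IFC4 and -0.0761 without SO2, in limma as well, and -1.07 in limma with depth as a covariate. With single libraries left out Tcf12 ranged over 3.10 to 5.77, -3.02 to -0.878, 1.54 to 4.34, 0.931 to 3.61 and 0.207 to 1.87 points, and Tcf3 over -1.35 to 2.15, 0.988 to 3.50, -4.43 to -0.231, 1.04 to 4.54 and 0.940 to 2.55 points, in the same order.

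Of the flanks of 50 kb, that downstream of Tcf4 passed the threshold at 6.82 points, in the contrast on which the gene was chosen. Tcf12 downstream was 0.722 and Tcf3 upstream -1.48 points. The mean over positions gave 0.00981 for Tcf12 downstream and -0.221 for Tcf3 upstream. Leaving out single libraries gave -2.87 to -0.745 (Tcf4 upstream), 2.92 to 4.51 (Tcf4 downstream), -0.971 to 1.25 (Tcf12 upstream, reversed without IV1), -1.06 to 1.09 (Tcf12 downstream, reversed at 0.225 without IFC4, 0.319 without SO5 and 1.09 without SOA1), -0.236 to 1.08 (Tcf3 upstream, reversed at -0.236 without IFC2) and 0.984 to 3.14 (Tcf3 downstream).

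Counts of bins depended on the test. Taken in the order IFC vs SO, then SO vs SOA, SOA vs IV and finally IFC vs SOA, the main counts over the genome were 2472, 4202, 1019 and 8292. The quasi-binomial test called 1, 23, 0 and 201, limma 48, 404, 0 and 2017, a limit of 30 points 497, 1014, 129 and 2986, and a minimum of 20 calls 826, 1124, 208 and 2369. Thinning left 452 for SOA vs IV. Of the Tcf4 bins, 22 for SO vs SOA became 0 with the quasi-binomial test, 6 with limma and 12 at 30 points, and 26 for IFC vs SOA became 1, 11 and 15. For SOA vs IV 2 became 0 in all of these and 1 with shifted bins, which also called 1 for IFC vs SO. Leaving out single libraries gave 0 to 1, 17 to 25, 0 to 3 and 24 to 28 Tcf4 bins, 0 to 1 Tcf12 bins for IFC vs SOA, and 2355 to 2903, 3807 to 5250, 697 (without IV1) to 1996 (without IV3; 1915 without IV2) and 7895 to 8968 bins in all. For gene bodies it gave 56 to 100, 164 to 291, 0 to 1, 548 to 728 and 676 to 969 calls. Genes of the bHLH list called became 0 with at least 100 calls per library, a limit that leaves out Tal1, and ranged from 0 to 1 for IFC and SO vs SOA and IV with single libraries left out.

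Same replicate numbers did not pair the libraries: r of their deviations was -0.0213 to 0.0871, with 0 pairs above 0.1. With the replicate number as a block, limma called 177 gene bodies for SO vs SOA (275 without it) and 1 for SOA vs IV, and 0 bins in each comparison, of Tcf4 and of the genome. Depth limits the single windows and starts, and 9 shallow libraries lie unevenly over the groups.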
